A study of Mus musculus with 27 samples.

Results

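The 44 genes described here encode the pore-forming and auxiliary subunits of voltage-gated calcium channels (Cacna, Cacnb, Cacng), voltage-gated sodium channels (Scn) and hyperpolarization-activated HCN channels. They are all entries of the expression table whose symbol begins with Cacna, Cacnb, Cacng, Scn plus a digit or Hcn plus a digit, 44 of 59489 entries, of which 23508 carry a symbol, and they were chosen by name, not by their values. The cells were wild-type mouse primary cortical cells taken at embryonic day 16.5 and kept 14 days in culture, and polyadenylated RNA was sequenced in 27 libraries, 3 for each of 9 groups. In 1 experiment all cells had DRB, an inhibitor of the kinases that release RNA polymerase II into elongation, at 50 µM for 2 h, and were left unstimulated, given 20 µM bicuculline for 1 h or given 50 ng/mL BDNF for 1 h. In the other experiment all cells had triptolide, an inhibitor of transcription initiation, at 1 µM for 3 h, and unstimulated cells were compared with cells given 20 µM bicuculline for 1 h, each as whole cells, nuclei and cytosol. Bicuculline blocks GABA-A receptors and so raises network activity, and BDNF is the neurotrophin that activates TrkB. Every group, the unstimulated ones included, had one of the inhibitors, and no group without one was analysed here. The study's title concerns how such cues act on intron retention, which values per gene do not measure.

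Voltage-gated calcium channels open on depolarization and couple electrical activity to transmitter release, dendritic excitability and gene expression. Their alpha1 subunit forms the pore, while beta and alpha2delta subunits bring the channel to the membrane and tune its gating. Several Cacng proteins, the TARPs, instead act mainly as auxiliary subunits of AMPA receptors. Sodium channel alpha subunits carry the rising phase of the action potential with beta subunits as partners, and HCN channels pass the inward current that sets resting potential and dendritic integration.

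The values are FPKM, fragments scaled to transcript length and sequencing depth, so levels may be set side by side between genes. Steps in the low values gave 67.6 to 148 M fragments (M, 1e6) per library if the smallest step is 0.5 fragment, with 56.1% to 63.3% of low values within 0.1 step, and at that depth 10 fragments on a 5 kb transcript come to between 0.0135 and 0.0296 FPKM. Intervals and p-values below measure the spread between these libraries, and the labels do not say whether the replicates were separate cultures. Summed markers of neurons lay between 1223 and 2088 FPKM, those of excitatory neurons between 513 and 897, of inhibitory neurons between 96.1 and 292, of astrocytes between 341 and 631 and of the oligodendrocyte lineage between 64.1 and 231 in the 27 libraries. Those of microglia lay between 2.09 and 6.34, of vascular and mesenchymal cells between 2.59 and 52.5 and of muscle between 0.306 and 0.840 FPKM. All 5 nuclear RNAs used to check the fractions (Meg3, Rian, Mirg, Miat and Snhg11) were higher in the nucleus than in the cytosol of unstimulated cells, with a median log2 difference of 2.89. In bulk RNA, fewer cells of a type and less RNA per cell cannot be told apart.

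Of the 44 genes, 34 had a mean of at least 1 FPKM over the 27 libraries, led by auxiliary subunits. Levels are means over all 27 libraries, and the order of genes differed between experiments and fractions. Among the pore-forming calcium channel subunits, the highest by this mean were Cacna1a, the P/Q-type pore of presynaptic terminals, Cacna1b, the N-type pore, and Cacna1g, a T-type pore that opens near rest. Their mean levels were 33.8, 31.2 and 19.9 FPKM. In unstimulated DRB cells Cacna1b had the higher mean, at 31.6 ± 2.10 against 27.5 ± 3.86 FPKM for Cacna1a (SD, n = 3). Cacna1e (R-type), the L-type genes Cacna1c and Cacna1d and the T-type genes Cacna1h and Cacna1i lay between 11.1 and 19.2 FPKM. The L-type pores of skeletal muscle and of the retina, Cacna1s and Cacna1f, had mean levels of 0.115 and 0.00665 FPKM, and Cacna1f was listed at 0 in 1 library. Cacnb3 led the beta subunits at 71.1 FPKM, followed by Cacnb1 at 36.4 and Cacnb4 at 20.3 FPKM, with Cacnb2 at 3.77 FPKM. Cacna2d1, an alpha2delta subunit that is also the receptor of gabapentin, had the highest mean of the 44 genes over the 27 libraries, and its lowest, median and highest libraries were 52.8, 81.4 and 96.9 FPKM. In unstimulated DRB cells it was at 69.9, 76.8 and 67.6 FPKM, below Cacnb3 at 89.7, 81.3 and 80.2 FPKM and Cacng7 at 80.9, 82.2 and 77.5 FPKM, and in the unstimulated nucleus its mean was also below that of Cacnb3. Cacna2d3 and Cacna2d2 followed at 32.3 and 5.74 FPKM, and Cacna2d4 stood at 0.263 FPKM. All 6 TARP genes were above 5 FPKM. The highest were Cacng7 at 70.3, Cacng3 at 51.4 and Cacng4 at 27.1 FPKM, and Cacng2, which encodes stargazin, was at 16.9 FPKM. The remaining family members, Cacng6 and the skeletal muscle gene Cacng1, were at 1.32 and 0.174 FPKM.

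By the same mean Scn2a1 was the highest sodium channel pore at 64.2 FPKM, ahead of Scn8a at 31.1, Scn3a at 12.99 and Scn1a at 11.4 FPKM, and in the unstimulated nucleus Scn1a was above Scn3a. In the brain Scn2a1 (Nav1.2) and Scn8a (Nav1.6) serve mainly excitatory axons, Scn1a (Nav1.1) is prominent in inhibitory neurons, and Scn3a is strongest before birth. The skeletal muscle, peripheral neuron and glial genes Scn4a, Scn7a, Scn9a, Scn10a and Scn11a lay between 0.0124 and 0.140 FPKM, Scn4a being listed at 0 in 1 library. Among the sodium channel beta genes Scn3b was at 68.1, Scn2b at 42.2 and Scn4b at 1.41 FPKM. Of the HCN genes Hcn2 was at 38.04, Hcn3 at 16.4 and Hcn4 at 8.10 FPKM. The library ranges of neighbours in the order of levels could overlap: Cacnb3 lay between 55.5 and 89.7 FPKM and Cacng7 between 54.6 and 82.2 FPKM. A filter of at least 1 FPKM in at least 3 libraries of an experiment left 35 of the 44 genes for testing under DRB and 33 under triptolide. Of these, 2 passed under DRB alone, Scn4b among them, 33 passed in both and 9 passed in neither. Since only 33 or 35 members passed, no count below is one over the whole family.

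**Figure D1:**
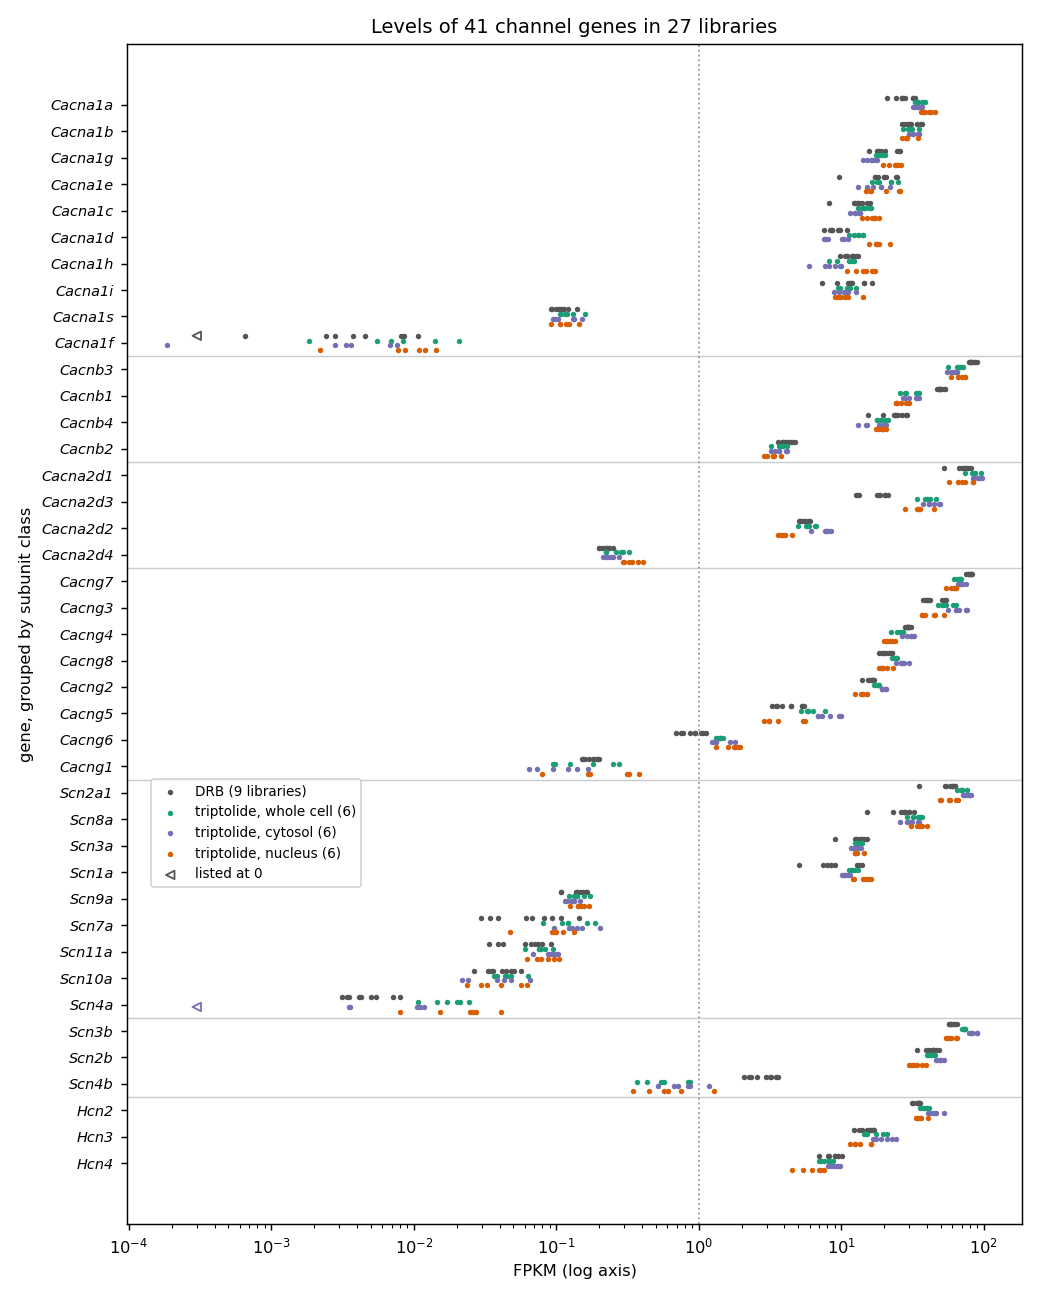
FPKM (log axis) of 41 of the 44 channel genes, grouped by subunit class, with 1 point per library coloured by experiment and fraction; the dotted line marks 1 FPKM and open triangles mark values listed at 0, drawn at the left edge. The 9 genes that passed the filter in neither experiment lie left of the line in every library, and the highest single value is 96.9 FPKM for Cacna2d1.

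Under DRB the comparison asks whether 1 h of bicuculline or BDNF changed channel RNA while elongation was inhibited, and no channel gene passed the test in any of the 3 contrasts. With limma and Benjamini-Hochberg adjustment, 0 of 35 were called for bicuculline against unstimulated, where 0.308% of all tested genes were called, 0 of 35 for BDNF against unstimulated (0.638% of all) and 0 of 35 for BDNF against bicuculline (0.128% of all). The 3 contrasts share libraries, and in this limma fit 0 of the 35 reached an unadjusted p under 0.05 in any of them. Over all 13321 genes 266, 462 and 347 did. The median log2 changes of the 35 genes were -0.041, 0.046 and 0.068, beside 0.0035, 0.0030 and -0.0019 over all genes tested. Hcn4, a slowly gating HCN subunit, was at 8.04, 9.01 and 8.19 FPKM in unstimulated cells and 9.09, 9.56 and 9.45 FPKM after BDNF. These groups did not overlap, and the log2 change was 0.15 (95% interval -0.13 to 0.42, limma adjusted p = 0.9999). Hcn4 and Scn4b, at -0.21 (SE 0.19), were among the 3 genes with the largest test statistics for BDNF. Groups did not overlap for 0, 2 and 1 of 35 genes in the 3 contrasts, beside 4.77%, 8.45% and 5.93% of all genes. Scn3b, with 0.068 (SE 0.059), Cacnb2, with -0.11 (SE 0.084), and Cacna1h, with -0.092 (SE 0.091), had the largest test statistics for bicuculline and were not called. Between BDNF and bicuculline the largest statistics were those of Cacnb2 at 0.18 (SE 0.084), Cacna1h at 0.19 (SE 0.091) and Scn3a at 0.26 (SE 0.14), also uncalled. With the replicate number as a block, which pairs the libraries, 0 of 35 were called in each contrast, against 0.571%, 1.49% and 0.54% of all genes. In that fit 1 higher and 1 lower channel gene had an unadjusted p under 0.05 in limma for each stimulus against unstimulated. For BDNF against bicuculline 2 higher ones did. Over all 13321 genes 958, 1131 and 1096 did in the 3 contrasts.

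Libraries under DRB differed by replicate number. The 3 libraries of replicate 2 lay above the other 6 for 11 of 35 genes, or 31.4%, where 18.4% of all genes did so. Scn1a was at 8.46, 13.3 and 7.48 FPKM unstimulated, 7.95, 14.1 and 5.07 FPKM with bicuculline and 8.53, 12.8 and 9.08 FPKM with BDNF, in the order of replicates 1 to 3. Its replicate 2 was highest in every group, and its mean there was 1.73 times that of the other 6 libraries. Cacna1i, Cacng5 and Cacna1g had ratios of 1.44, 1.40 and 1.40, followed by Cacng3, Cacnb4, Cacna1a, Scn8a, Scn2b, Cacnb1 and Hcn2 at 1.32 to 1.06. Cacna2d3 alone went the other way with a ratio of 0.665, where 14.8% of all genes were lower. For replicates 1 and 3 the counts were 1 and 1 higher (6.29% and 5.45% of all genes) and 3 and 6 lower (5.31% and 8.57% of all). The values of Cacna2d3 values were 18.5, 13.3 and 20.3 FPKM unstimulated, 18.7, 12.8 and 21.5 FPKM with bicuculline and 17.97, 12.9 and 20.4 FPKM with BDNF. Without the 3 libraries of replicate 2, an alternative chosen after the data were seen, 0 channel genes were called in each contrast.

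A single library also stood apart. The bicuculline library of replicate 3 held the lowest of the 9 values for 22 of 35 channel genes, or 62.9%, against 24.4% of all genes tested under DRB. Scn2a1 was at 59.7, 62.99 and 35.2 FPKM with bicuculline and 58.4, 62.5 and 53.3 FPKM unstimulated, and Cacna1e at 17.2, 24.3 and 9.65 FPKM with bicuculline and 19.9, 19.9 and 18.01 FPKM unstimulated. The third value of each bicuculline group was below every unstimulated one. In that replicate longer transcripts had the lower log2 change from unstimulated to bicuculline, with a Spearman correlation of -0.79 across the 35 channel genes and -0.64 across 11383 annotated genes, whose points share the same 2 libraries. In replicates 1 and 2 the same correlation across channel genes was -0.055 and 0.69, and for BDNF against unstimulated it was 0.19, -0.093 and 0.77 in replicates 1, 2 and 3. These descriptions were chosen after the data were seen. The part of transcript length in the channel values was not tested. Without that library 0 channel genes were called in the bicuculline contrasts.

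**Figure D2:**
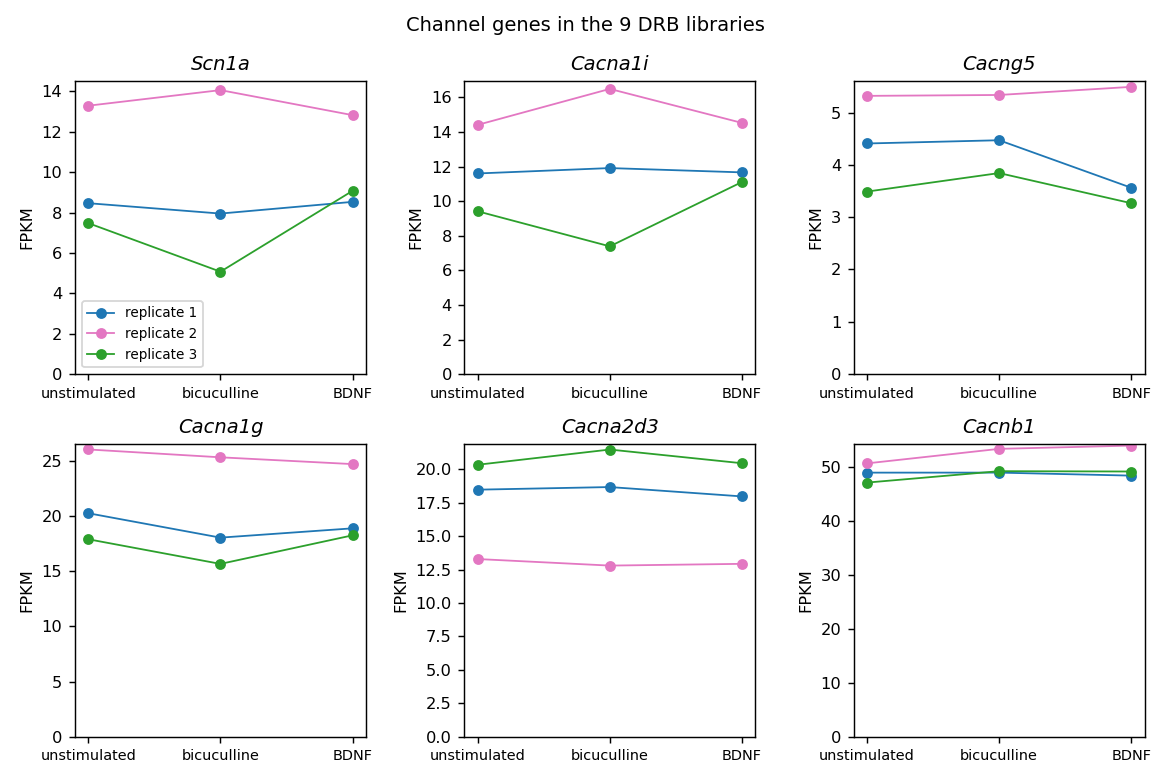
FPKM of 6 channel genes in the 9 DRB libraries, 1 panel per gene, with the stimulus on the horizontal axis and a line for each replicate number. Replicate 2 lies above the others in the panels of Scn1a, Cacna1i, Cacng5, Cacna1g and Cacnb1 and below them in that of Cacna2d3 (13.3, 12.8 and 12.9 FPKM).

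Most channel RNAs differed between nucleus and cytosol under triptolide, and the classes went different ways. FPKM is scaled within each library, so these differences compare a gene's share of the RNA in each fraction. They do not give the amount of its RNA in either fraction of a cell. In unstimulated cells 27 of 33 genes were called (limma, adjusted p under 0.05), or 81.8% where 67% of all genes were called. Of these 8 were higher in the nucleus, 24.2% against 39% of all genes, and 19 were lower, 57.6% against 28% of all. With the replicate block the count was 28, against 75.9% of all genes. Groups did not overlap for 27 of 33, beside 69.1% of all. The median log2 difference, nucleus minus cytosol, was -0.28 for the 33 channel genes and 0.059 over all genes. Of the 8 pore-forming calcium channel genes 5 were higher in the nucleus, Cacna1d, Cacna1h, Cacna1g, Cacna1c and Cacna1a, and Cacna1b was lower. All 3 alpha2delta genes and 6 of 7 Cacng genes were lower in the nucleus, with class medians of -0.48 and -0.54. So were the sodium channel beta genes Scn2b and Scn3b and the HCN genes Hcn2, Hcn3 and Hcn4. The beta and sodium channel alpha genes were divided, Cacnb4, Scn1a and Scn8a being higher and Cacnb1 and Scn2a1 lower.

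Cacna1d, the L-type pore (Cav1.3) that opens at relatively negative potentials, had the largest nuclear excess. It was at 17.9, 17.7 and 18.3 FPKM in the nucleus and 7.82, 8.12 and 7.59 FPKM in the cytosol, a log2 difference of 1.15 (SE 0.10, limma adjusted p = 3.59e-08). The fractions did not overlap, and the FPKM of each of the 3 nuclear libraries was more than 2 times that of any cytosolic one. Cacna1h, a T-type pore, was at 12.7, 14.8 and 16.3 FPKM in the nucleus and 5.93, 7.71 and 9.08 FPKM in the cytosol, a difference of 0.92 (SE 0.18). Cacna1g, Scn1a, Cacnb4 and Cacna1c followed at 0.52 (SE 0.10), 0.51 (SE 0.077), 0.43 (SE 0.078) and 0.31 (SE 0.066). At the other end stood Cacng5, a TARP gene of low level, at 3.09, 2.88 and 3.63 FPKM in the nucleus and 6.86, 6.92 and 9.95 FPKM in the cytosol, with a log2 difference of -1.17 (SE 0.18, limma adjusted p = 3.20e-05). Its highest nuclear library was below its lowest cytosolic one. Also among the lowest were Cacna2d2, Cacng3, Scn3b and Hcn4 at -0.84 (SE 0.10), -0.74 (SE 0.14), -0.64 (SE 0.049) and -0.62 (SE 0.085).

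After bicuculline the fractions differed for 22 of 33 genes, 66.7% against 63.2% of all genes, with 6 higher in the nucleus (31.3% of all genes were) and 16 lower (31.9% of all). Groups did not overlap for 23 of 33, beside 65.4% of all genes. With the replicate block the count was 29, against 74% of all genes. The same 22 genes were called in the same direction in unstimulated cells, where 7812 of all 14205 genes were called alike in both states. The sign was kept by 30 of 33 channel genes, beside 12656 of all 14205 genes. Cacna1d still led with 0.76 (SE 0.10) and was followed by Cacna1h at 0.56, Cacna1g at 0.53, Cacna1c at 0.37, Cacna1a at 0.27 and Scn1a at 0.23. Among the lowest were Cacna2d2 at -0.90 (SE 0.10), Cacng5 at -0.81, Cacng3 at -0.56 and Hcn3 at -0.50. In the fit without the block, the calls of Cacna1h, Scn1a and Hcn3 depended on single bicuculline libraries. Cacna1h had an adjusted p of 0.0505 without cytosol replicate 1 and 0.0727 without nucleus replicate 2. Scn1a had 0.0560 without cytosol replicate 2 and 0.108 without nucleus replicate 2, and Hcn3 had 0.0804 without cytosol replicate 2 and 0.0608 without nucleus replicate 1 (limma). With the block and all libraries, the adjusted p of Cacna1h, Scn1a and Hcn3 were 1.21e-05, 0.00957 and 9.84e-07 (limma). Whole-cell means lay between those of nucleus and cytosol for 29 of 33 genes unstimulated and 30 of 33 after bicuculline, beside 81.6% and 82.2% of all genes.

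Markers of cell types also differed between the fractions. In unstimulated cells 3 of 5 neuron markers were lower in the nucleus and Map2 was higher, with a median log2 difference of -0.73. All 3 inhibitory neuron markers were lower, with a median of -1.27. Of 6 excitatory markers 5 were lower and Camk2a was higher, with a median of -0.48. The summed FPKM of the 6 excitatory markers was higher in the nucleus, with a mean of 755 against 552 in the cytosol. Of 6 astrocyte markers tested, 3 were higher and the median was 0.26, and of 7 oligodendrocyte lineage markers 1 was higher and 3 were lower, with a median of -0.19. In microglia and vascular cells 2 markers each were tested, with medians of 0.42 and 0.63. The part of cell type in the channel differences was not tested.

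**Figure D3:**
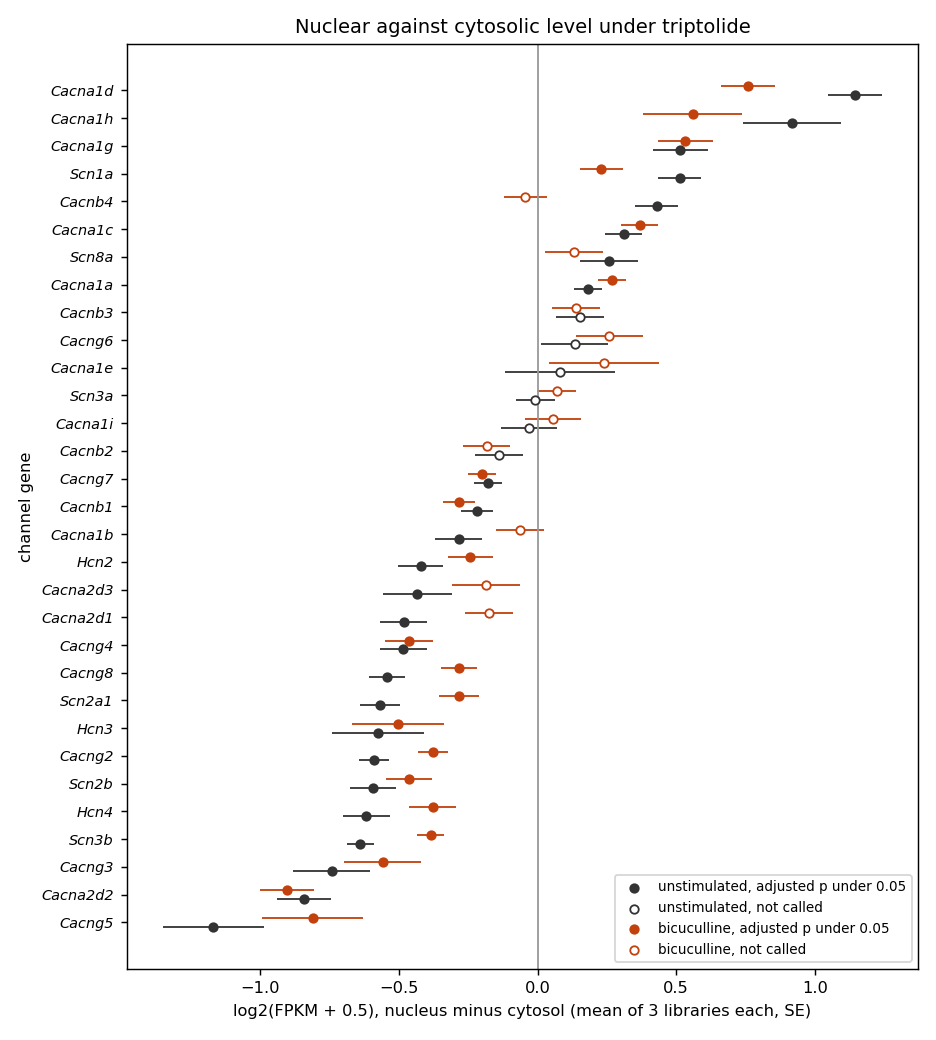
Difference of mean log2(FPKM + 0.5), nucleus minus cytosol, for 31 of the 33 channel genes tested under triptolide, in unstimulated (dark) and bicuculline (orange) cells, with bars for the SE from limma and filled points for adjusted p under 0.05. Cacna1d is at the top with 1.15 and 0.76, and Cacng5, Cacna2d2 and Cacng3 are near the bottom in both states.

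The nucleus minus cytosol difference correlated with intron number across the channel genes, with exceptions in its direction. The choice of members did not use the structure of the gene. In GENCODE M21 on GRCm38, the assembly of mm10, all 44 genes were found, and the 33 tested ones had a median span of 110.5 kb and 13 introns, beside 26.95 kb and 8 introns for 11563 matched genes. The pore-forming genes are built alike, with 34 to 48 introns in the 8 calcium channel alpha1 genes tested and 26 in each of the 4 sodium channel alpha genes tested. The Cacng, sodium channel beta and HCN genes tested have 3 to 8 introns. Across the 33 genes the Spearman correlation of the unstimulated difference with intron number was 0.54, and Pearson's r with the log2 of the intron number plus 1 was 0.55, beside 0.24 and 0.22 across all matched genes. With the span of the gene the Spearman correlation was 0.29, beside 0.10 for all, and with transcript length it was 0.34, beside 0.20 for all. After bicuculline the correlation with intron number was 0.61 across channel genes and 0.26 across all, and with transcript length 0.40 and 0.25. Paralogs share their structure and all points share the same libraries, so these are descriptions without a test. The 3 alpha2delta genes, with 37 to 39 introns, were lower in the nucleus, and their intron numbers lie within the range of the alpha1 genes. Cacna1b, with 46 introns, and Scn2a1, with 26, were also lower, at -0.28 and -0.57. Cacnb3, with 12 introns, and Cacng6, with 3, lay above 0, at 0.15 and 0.13.

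**Figure D4:**
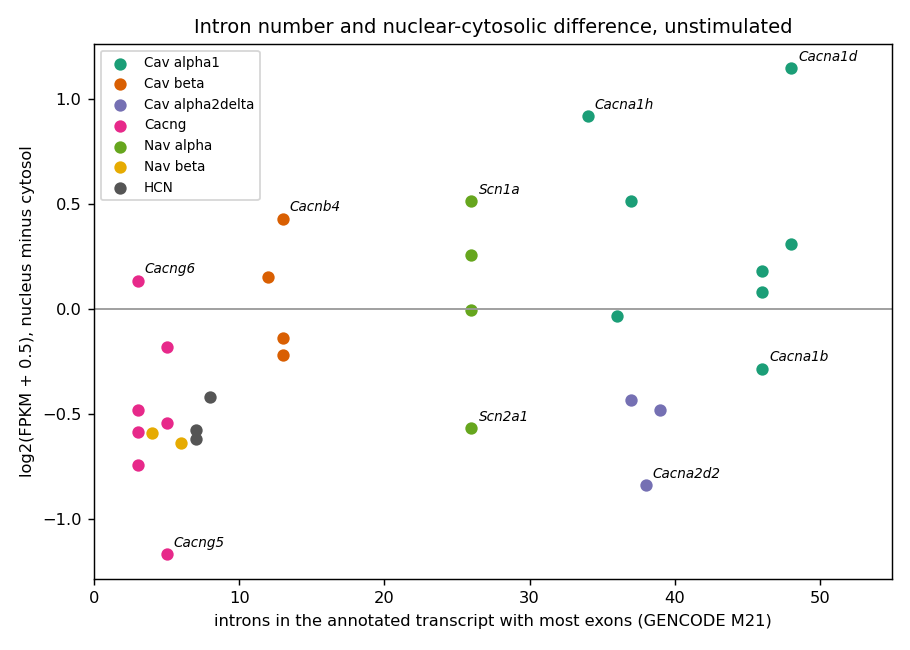
Nucleus minus cytosol difference of log2(FPKM + 0.5) in unstimulated cells (vertical axis) against the largest number of introns in an annotated transcript (horizontal axis) for 31 of the 33 channel genes tested, coloured by subunit class. Genes with few introns lie mostly below 0 and calcium channel alpha1 genes mostly above, while the 3 alpha2delta genes with 37 to 39 introns lie below.

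The number of channel genes called for bicuculline under triptolide depended on whether the fit used the pairing of libraries. With the replicate block 12 of 33 rose in the nucleus (36.4%, against 13.1% of all genes called), 5 in the cytosol (15.2%, against 15.3%) and 2 in whole cells (6.06%, against 4.23%). Without the block fewer were called. In the cytosol 3 of 33 rose (9.09%, where 3.27% of all genes were called and 3.18% rose): Cacnb4 and Cacnb1, beta subunits that traffic and modulate the high-voltage calcium channels, and Cacna1d. In the nucleus 2 rose (6.06%, where 1.81% of all genes were called and 0.986% rose), among them the pacemaker channel gene Hcn4. In whole cells 0 of 33 were called (0.0352% of all genes), and 5 of 33 had an unadjusted p under 0.05 in limma, all of them higher. Over all 14205 genes 1566 did, 1262 of them higher. No channel gene was called lower in any of the 3 fractions. Few genes of all 14205 were called lower without the block, 117 in the nucleus, 13 in the cytosol and 3 in whole cells. With the block these numbers were 766, 113 and 73. Groups did not overlap for 12, 11 and 8 of 33 genes in cytosol, nucleus and whole cell, beside 24.6%, 17.7% and 16.8% of all genes. These contrasts share their libraries with the contrasts between fractions.

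The promoters of the 3 genes called higher in the cytosol without the block are shown as a description. Each is the 150 bases before 1 of the annotated starts in RefSeq on GRCm38.p6, which lists 3 for Cacnb4, 2 for Cacna1d and 2 for Cacnb1. The starts used lie 466, 301 and 15 bases inside the deposited gene models, and all 3 windows lie within the GENCODE spans of the genes, so other annotated transcripts begin upstream of them. The sequences are read 5′ to 3′ on the strand of the gene, with motif matches in capitals: Cacnb4 chr2:52676144-52676293 on the minus strand, Cacna1d chr14:30491157-30491306 on the minus strand and Cacnb1 chr11:98022628-98022777 on the minus strand.
Cacnb4: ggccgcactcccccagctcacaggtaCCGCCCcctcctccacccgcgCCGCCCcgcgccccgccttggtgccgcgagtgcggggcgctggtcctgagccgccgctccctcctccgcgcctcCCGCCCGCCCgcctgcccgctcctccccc
Cacna1d: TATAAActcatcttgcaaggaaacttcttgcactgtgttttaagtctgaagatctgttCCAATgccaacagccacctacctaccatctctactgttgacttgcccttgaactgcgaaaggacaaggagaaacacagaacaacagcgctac
Cacnb1: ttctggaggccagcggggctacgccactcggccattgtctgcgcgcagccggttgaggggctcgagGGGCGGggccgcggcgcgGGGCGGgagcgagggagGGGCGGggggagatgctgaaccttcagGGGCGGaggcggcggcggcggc
The TATA box was searched as TATAAA. The GC box was searched as GGGCGG, the CCAAT box as CCAAT and the cyclic AMP element as TGACGTCA, all of them on both strands. Cacnb4 had 4 GC boxes on the opposite strand, the last 2 of them overlapping, and Cacnb1 had 4 on the strand of the gene. Their GC contents were 82% and 78%. Cacna1d, at 44% GC, had TATAAA at the far end of the window and a CCAAT, and no GC box. Over 32851 promoters of this length the TATA box occurred in 7.57%, the GC box in 28.6%, the CCAAT box in 24.5% and the cyclic AMP element in 1.36%. Of 43 entries for 32 of the channel genes, the TATA box occurred in 2, the GC box in 15, the CCAAT box in 9 and the cyclic AMP element in 0. A match describes the letters and not a binding site. All cells of this contrast had triptolide, and the part of promoters in the cytosolic changes was not tested.

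Cacnb4 in the cytosol was at 15.1, 15.1 and 13.1 FPKM unstimulated and 20.7, 18.5 and 19.5 FPKM after bicuculline, and the groups did not overlap. The log2 change was 0.43 (SE 0.078, limma adjusted p = 0.0146). In the nucleus the same gene was at 19.8, 19.4 and 19.5 FPKM unstimulated and 17.6, 20.8 and 18.5 FPKM after bicuculline, groups that overlapped, with a change of -0.046 (SE 0.078). Cacna1d in the cytosol went from 7.82, 8.12 and 7.59 to 10.2, 11.2 and 10.4 FPKM, a change of 0.41 (SE 0.10, limma adjusted p = 0.0346), while its nuclear libraries were 17.9, 17.7 and 18.3 FPKM before and 15.8, 21.96 and 17.6 FPKM after. The cytosolic groups were apart and the nuclear ones overlapped. Cacnb1 was at 28.3, 30.00 and 26.98 FPKM in the cytosol of unstimulated cells and 33.5, 34.3 and 35.4 FPKM after bicuculline, a change of 0.27 (SE 0.058, limma adjusted p = 0.0239). In whole cells it was at 28.4, 28.2 and 25.9 FPKM and 33.3, 34.6 and 35.4 FPKM, with a change of 0.32 and an adjusted p of 0.0593, or 0.00651 with the replicate block. The next largest test statistics in whole cells were those of Cacna1a, at 0.18 (SE 0.051), and Cacna1i, at 0.28 (SE 0.10), and with the block Cacna1a was called too (adjusted p = 0.0419), against 4.23% of all genes. The cytosolic groups of Cacnb4, Cacna1d and Cacnb1 did not overlap, so their 3 of 3 higher pairs of cytosolic libraries follow from that and add nothing.

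The cytosolic calls were sensitive to scaling. Over all genes the median cytosolic change was 0.084 as deposited and -0.0016 after median-ratio scaling, and the channel median went from 0.016 to -0.085. After that scaling Cacnb4 had a change of 0.33 (limma adjusted p = 0.0694), Cacna1d of 0.31 (adjusted p = 0.161) and Cacnb1 of 0.17 (adjusted p = 0.155), so that 0 were called. With the replicate block 5 were called at the deposited scale, against 15.3% of all genes, the added genes being Cacna1h at 0.30 (adjusted p = 0.0224) and Scn8a at 0.17 (adjusted p = 0.0390). With block and median-ratio scaling together, an alternative chosen after the data were seen, the 3 genes were called again with adjusted p of 0.0131, 0.0206 and 0.0444. In that fit 5 genes fell, among them Cacng2, Cacng7, Cacng8 and Scn3b, with changes between -0.18 and -0.23. The share of all genes called in that fit is not given here. When single cytosolic libraries were left out, Cacnb4 lost its call without bicuculline replicate 1 or 3 or unstimulated replicate 3 (adjusted p 0.0524 to 0.0769). Cacna1d lost it in all 6 such fits (0.0539 to 0.144), and Cacnb1 in 5 of them (0.0536 to 0.120), keeping it without unstimulated replicate 2. On the annotated exons, 13.4% of Cacnb4 bases lie opposite A430018G15Rik and 6.54% of Cacna1d bases opposite Chdh, whose level reached at most 0.0279 FPKM. The strand setting of the counting was not stated. The cytosolic change also went with transcript length, with Spearman correlations across the 33 channel genes of 0.47, 0.39 and 0.38 in replicates 1, 2 and 3, beside 0.34, 0.25 and 0.21 across all matched genes. The part of transcript length in the cytosolic calls was not tested.

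Hcn4 in the nucleus was at 5.44, 6.26 and 4.51 FPKM unstimulated and 7.02, 7.62 and 7.16 FPKM after bicuculline, a log2 change of 0.41 (SE 0.085, limma adjusted p = 0.0267). Every bicuculline library was above every unstimulated one. Its cytosolic change was 0.17 (SE 0.085) and was not called. Cacna1a, at 0.20 (SE 0.051, adjusted p = 0.0591), had the largest statistic in the nucleus among genes not called. Without nucleus unstimulated replicate 1 or 3 or nucleus bicuculline replicate 1 or 3, the call of Hcn4 was lost, with adjusted p from 0.0679 to 0.0927. Without nucleus unstimulated replicate 2 or bicuculline replicate 2 the counts of channel genes called were 4 and 5, and the shares of all genes are not given here. The 12 nuclear calls with the replicate block were all higher, where 7.72% of all genes were. The 10 added genes were Cacna2d1 at 0.33 (adjusted p = 7.56e-04), Scn2a1 at 0.26 (adjusted p = 0.00398), Cacng5, Cacna1e, Cacna1i, Cacna2d3, Cacnb1, Cacna1c, Cacna1a and Scn3b, with log2 changes from 0.15 to 0.46. Cacna2d1 was at 57.6, 70.6 and 65.6 FPKM before and 73.8, 84.6 and 84.4 FPKM after, higher in each pair. Beside these changes, Syt1 of the 5 neuron markers rose in the nucleus, the median changes of neuron, excitatory and inhibitory markers were 0.12, 0.26 and 0.41, and that of astrocyte markers was -0.12. With the block 4 of 6 excitatory and 3 of 3 inhibitory markers rose in the nucleus, as did 1 of 5 neuron markers, while of 6 astrocyte markers 0 rose and 1, Slc1a3, fell. In replicate 2 the nuclear change rose with transcript length across the 33 channel genes, with a Spearman correlation of 0.70, against -0.044 and 0.067 in replicates 1 and 3 and 0.35, 0.027 and 0.15 across all matched genes in replicates 2, 1 and 3. The part of cell type or transcript length in these values was not tested.

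**Figure D5:**
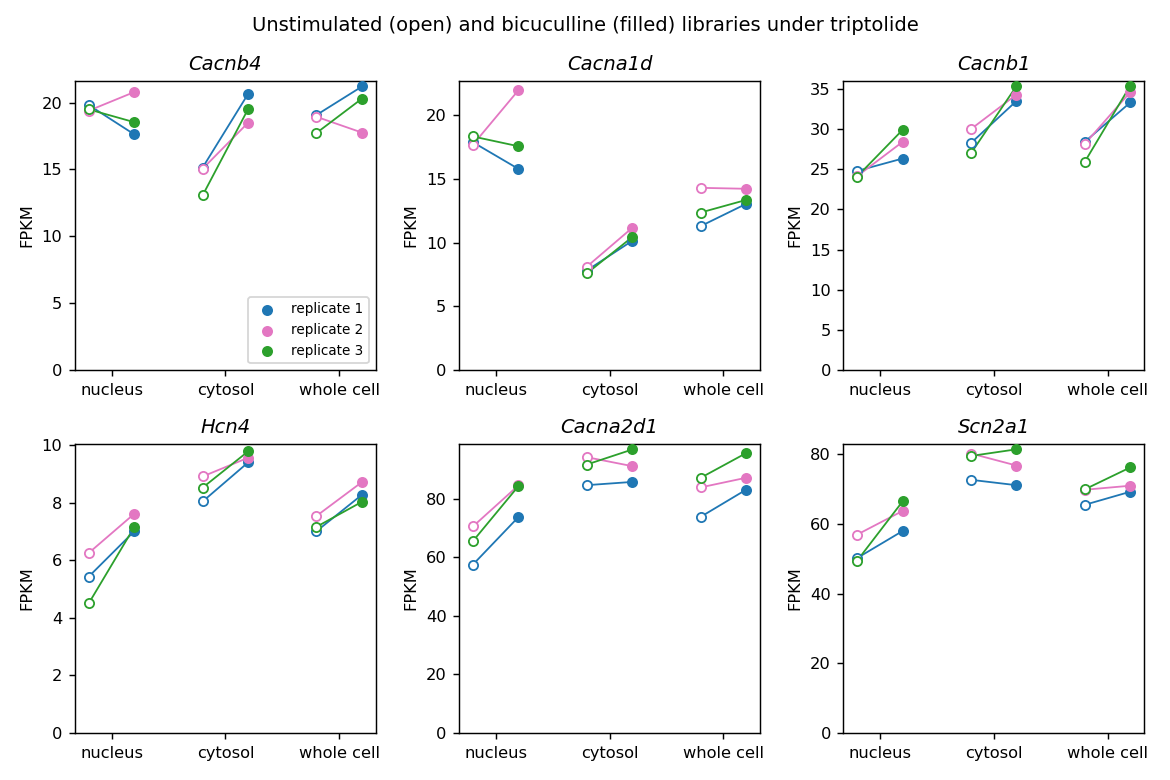
FPKM of 6 channel genes under triptolide in nucleus, cytosol and whole cell, with open points for unstimulated and filled points for bicuculline libraries, and a line joining libraries of the same replicate number. The cytosolic lines of Cacnb4, Cacna1d and Cacnb1 all rise, as do the nuclear lines of Hcn4, Cacna2d1 and Scn2a1, and the nuclear lines of Cacnb4 go both ways (-0.16, 0.10 and -0.071 on the log2 scale).

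Whether the response differed between nucleus and cytosol was tested by the interaction. It called 0 of 33 channel genes, where 0.556% of all genes were called. In limma 9 of 33 had an unadjusted p under 0.05, 6 higher and 3 lower. Over all 14205 genes 2326 did, 434 higher and 1892 lower. With the replicate block the interaction called 7 channel genes, or 21.2%, against 9.76% of all genes. Of these, 5 had a positive interaction, the log2 change in the nucleus being above that in the cytosol, among them Cacna2d1 (0.31), Scn2a1 (0.28), Cacng8 (0.26) and Scn3b (0.25), where 2.84% of all genes were called so. Cacng8 had changes of 0.13 in the nucleus and -0.13 in the cytosol and Scn3b of 0.15 and -0.10, opposite in sign. The other two, Cacnb4 (-0.47, adjusted p = 0.0135) and Cacna1d (-0.39, adjusted p = 0.0299), had a negative one, where 6.92% of all genes were called so. The nuclear excess of these 2 genes was smaller after bicuculline than before. For Cacnb4 it went from 0.43 to -0.044 and for Cacna1d from 1.15 to 0.76. The absolute difference between fractions was smaller after bicuculline for 22 of 33 channel genes, 66.7%, beside 64.6% of all genes. Over all genes the median interaction was -0.11 as deposited and -0.034 after median-ratio scaling, and the channel median was 0.088 and 0.18. Without the nucleus bicuculline library of replicate 2, 5 channel genes were called in the fit with no block. With block and median-ratio scaling together 9 were called, Cacnb4 among them and Cacna1d not. The shares of all genes called in these alternative fits are not given here, so their counts are not read as results about channel genes.

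Among 35 listed partners of these channels (ion-channel associated proteins, anchors and release-site scaffolds), 31 entries were tested under triptolide. In unstimulated cells 13 were higher and 8 lower in the nucleus, where 39% and 28% of all genes were, and after bicuculline 11 were higher and 10 lower (31.3% and 31.9% of all). In the cytosol 4 of 31 rose with bicuculline, where 3.18% of all genes rose, and 0 fell. These were Sptbn4, the beta-IV spectrin of the axon initial segment, at 0.47 (SE 0.081, adjusted p = 0.0124), Rimbp2, an active-zone scaffold that binds calcium channels, at 0.47 (SE 0.094, adjusted p = 0.0206), and Unc80 and Unc79, subunits of the sodium leak channel complex, at 0.37 (SE 0.086, adjusted p = 0.0296) and 0.29 (SE 0.068, adjusted p = 0.0320) in limma. In the nucleus Nalcn, the pore of that complex, rose, at 0.39 (SE 0.085, adjusted p = 0.0294) in limma, where 0.986% of all genes rose. Unc79 was the partner called in the interaction, at -0.48 (SE 0.10, adjusted p = 0.0364) in limma. Under DRB 0 of 30 and in whole cells 0 of 31 were called in limma. The cytosolic partner calls were made at the deposited scale, where the median cytosolic change of all genes was 0.084. Single partners were not refitted with other scaling or with a library left out. The part of transcript length in their changes was not tested.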

How the data were processed

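The deposited table holds FPKM computed by the authors for each gene model and library; per the submitters' processing notes the tools included STAR 2.4.0, SAMtools, Picard and FastQC with the mm10 build, and no counting program or strand setting is named there. Libraries were made from 200 ng of total RNA with the TruSeq Stranded mRNA kit, per the labels' protocols. Columns were assigned by the sample descriptions. Genes with at least 1 FPKM in at least 3 libraries of an experiment were tested with limma 3.58.1 in R 4.3.3 on log2(FPKM + 0.5), with trended robust variances, 13321 genes in the 9 DRB libraries and 14205 in the 18 triptolide libraries, and Benjamini-Hochberg adjustment at 0.05 over all of them. A log2 change on this scale understates that of low genes. The scripts were tested on simulated data.

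Deviations of libraries with the same replicate number correlated in every contrast (r from 0.256 to 0.902, each library best with its own number in 3 of 3 cases), so the fit with the number as a block is given where it changes a call. Gene structures came from GENCODE M21 and promoters from RefSeq. Alternatives were other pseudocounts, no filter, median-ratio and quantile scaling, the block, only the groups compared, and each library left out. The channel genes, partner and marker lists were chosen with earlier results of these data known. Genes given with values are up to 6 called in each direction per contrast, the 3 of largest test statistic where fewer than 3 were called, and the 3 highest of each class by level. Some members are counted but not reported by name here. Members outside these rules named with values were chosen after their values were seen.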

Additional observations from a re-analysis of the deposited data

Results flagged for a closer look

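In all, 6 of the channel genes reported here had a bicuculline response under triptolide that differed between nucleus and cytosol by the interaction in limma with the replicate number as a block, and each difference had the same sign in 3 of 3 replicates. None of the 6 was called without the block, where the adjusted p lay between 0.0663 and 0.223. With the block 9.76% of all genes were called, 2.84% with a positive and 6.92% with a negative interaction. The negative calls, Cacna1d and Cacnb4, made up 6.06% of the 33 channel genes tested, near the share of all genes. Cacna2d1 had a log2 change in the nucleus above that in the cytosol by 0.31 (SE 0.066, adjusted p = 0.0128), and Scn2a1 by 0.28 (SE 0.072, adjusted p = 0.0263). Cacng8 differed by 0.26 (SE 0.076, adjusted p = 0.0421), with 0.13 in the nucleus and -0.13 in the cytosol. Scn3b differed by 0.25 (SE 0.064, adjusted p = 0.0256). Cacna1d differed in the other direction by -0.39 (SE 0.10, adjusted p = 0.0299), with replicate values of -0.53, -0.13 and -0.50. Cacnb4 differed by -0.47 (SE 0.10, adjusted p = 0.0135), with replicate values of -0.60, -0.19 and -0.63. For both genes replicate 2 had the smallest difference. With block and median-ratio scaling together, Cacna1d was not called in the interaction.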

How the results depend on the processing

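Counts of channel genes called in the 3 DRB contrasts were 0 in every alternative run. In the cytosol the 3 calls for bicuculline became 1 without the filter and 0 with median-ratio scaling, quantile normalization or only the groups compared, and 0 to 2 with a library left out. In the nucleus the 2 calls became 7 with quantile normalization and 0 with only the groups compared, and 0 to 5 with a library left out. The interaction called 1 with median-ratio scaling and 0 to 5 with a library left out. With the replicate block, which pairs libraries, the counts were 2 in whole cells, 12 in the nucleus, 5 in the cytosol and 7 for the interaction, and with block and median-ratio scaling together, chosen after the data were seen, 1, 12, 8 and 9. The block changed no other contrast's count by over 1.5 times. Apart from the block, the shares of all genes called are not given for these alternatives. A higher count may therefore go with more genes called in general. The nucleus against cytosol counts were 26 to 27 unstimulated and 19 to 23 after bicuculline with a library left out, and 28 and 29 with the block. No named gene changed direction: among the refitted values of named genes 589 kept their side of the threshold, 42 lost the call and 17 gained it. The cause was not tested. The precision is set by 3 libraries a group, and levels under 0.0296 FPKM rest on few fragments.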
